A study of Mus musculus with 8 samples.

Results

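C-type lectin receptor genes were taken as every gene whose symbol in the platform annotation begins with Clec and a digit, with Cd209 or with Klr. They were 63 of the 19938 genes that had a probe set with exactly 1 symbol: 33 Clec genes, 7 Cd209 genes and 23 Klr genes. The rule goes by symbol, so not every member encodes a receptor. RefSeq lists Clec2j and Klrb1-ps1 as pseudogenes, and Clec16a encodes an endosomal protein. The cells were mouse bone marrow cultures turned into macrophages by 10 days of M-CSF at 10 ng/ml, serum-starved overnight and treated with 50 ng/ml recombinant murine IL-6 for 4 h. Ctrl macrophages came from IL6ralpha flox/flox mice, whose receptor gene is flanked by loxP sites and intact. IL6raKO macrophages came from IL6ralpha flox/flox LysMCre tg/wt mice, which also carry a Cre recombinase driven from the lysozyme M locus of myeloid cells. Each group had 4 arrays, called biological replicates in the labels, which do not give the age of the mice or say that each array was a separate animal, so the tests measure the spread between these 8 samples. All 8 cultures received IL-6, and what Cre itself does cannot be told apart from what recombination of the receptor gene does. The comparison asks how the expression of these receptors in IL-6-treated macrophages differs between the genotypes.

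The floxed gene, Il6ra, had log2 values of 8.42 ± 0.02 in Ctrl against 7.92 ± 0.14 in IL6raKO (SD, n = 4 each), and the groups did not overlap. The IL6raKO level of its probe set was 70.6% of Ctrl, above the expression cut defined below. The limma adjusted p over all genes was 0.0607, which does not pass 0.05. Whether the probes lie in the floxed part of the gene was not examined, so the share of intact receptor RNA cannot be read from this level. Of 9 measured macrophage markers, 8 lay above the expression cut defined below, among them Adgre1, Csf1r and Cd68. Cd163 did not. Precision here depends on the number of arrays and on how far they spread for each gene. Hybridisation gives no read counts. Of the markers of other cell types, those above the cut were 1 of 8 for B cells, 3 of 9 for T cells and 3 of 12 for neutrophils.

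C-type lectin receptors share a fold that in some members binds sugars in a calcium-dependent way and in others binds proteins, lipids or crystals. In myeloid cells, Dectin-1 carries a tyrosine motif of its own, while Dectin-2 and Mincle borrow one from the Fc receptor gamma chain. Both routes reach the kinase Syk and the CARD9, BCL10 and MALT1 complex, whereas receptors of the DCIR and MICL type can carry an inhibitory motif that recruits phosphatases. The Klr genes encode the lectin-like receptors of natural killer (NK) cells, and several Clec2 proteins are ligands of the NKR-P1 receptors among them.

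Promoters of these receptors are shown here for 4 members that were expressed in the macrophages and for Clec4b2, a member of the same gene cluster as Clec4d and Clec4e that was not above the expression cut. They are the 250 bases before an annotated start from RefSeq, build GRCm38.p6, written in the direction of the gene. Capitals mark GAGGAA or its reverse complement TTCCTC, the core of many sites bound by PU.1, the ETS transcription factor of myeloid cells. The positions are chr6:129472780-129473029 (minus strand) for Clec7a, where the table holds 2 overlapping windows, chr6:129349994-129350243 (plus strand) for Clec12a, chr6:123261857-123262106 (plus strand) for Clec4d, chr6:123289872-123290121 (minus strand) for Clec4e and chr6:123172773-123173022 (plus strand) for Clec4b2.
Clec7a: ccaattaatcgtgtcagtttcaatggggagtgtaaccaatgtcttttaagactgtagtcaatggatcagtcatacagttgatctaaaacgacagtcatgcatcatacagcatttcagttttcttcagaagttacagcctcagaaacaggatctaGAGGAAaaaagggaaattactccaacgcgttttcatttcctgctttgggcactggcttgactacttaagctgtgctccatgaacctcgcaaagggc
Clec12a: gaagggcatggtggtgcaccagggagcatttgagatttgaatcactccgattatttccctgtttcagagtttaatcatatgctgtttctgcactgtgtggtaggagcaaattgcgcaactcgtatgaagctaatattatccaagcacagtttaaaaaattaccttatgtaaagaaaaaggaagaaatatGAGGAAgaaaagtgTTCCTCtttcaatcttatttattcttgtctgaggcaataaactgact
Clec4d: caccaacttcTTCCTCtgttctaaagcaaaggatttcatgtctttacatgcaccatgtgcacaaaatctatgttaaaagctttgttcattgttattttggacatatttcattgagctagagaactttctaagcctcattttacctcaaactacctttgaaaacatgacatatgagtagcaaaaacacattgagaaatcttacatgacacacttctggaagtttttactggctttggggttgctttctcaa
Clec4e: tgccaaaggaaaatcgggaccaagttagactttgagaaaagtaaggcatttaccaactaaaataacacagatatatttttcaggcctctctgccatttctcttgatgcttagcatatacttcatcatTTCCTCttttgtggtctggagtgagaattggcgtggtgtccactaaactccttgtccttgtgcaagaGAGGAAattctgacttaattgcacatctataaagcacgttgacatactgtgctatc
Clec4b2: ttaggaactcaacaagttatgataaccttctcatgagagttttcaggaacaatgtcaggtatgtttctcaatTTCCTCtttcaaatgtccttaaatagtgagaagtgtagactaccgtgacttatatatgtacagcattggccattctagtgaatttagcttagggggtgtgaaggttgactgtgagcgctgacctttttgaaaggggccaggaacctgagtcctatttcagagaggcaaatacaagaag

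GAGGAA stood in the 250 bases, on either strand, for 10 of the 13 expressed members with a promoter in the table (76.9%), and for 18 of the 39 members that were not above the expression cut (46.2%). The share was 26.1% among all expressed genes with a promoter in the table, 24.9% among genes not above the cut and 25.9% among all 27025 genes of the table. The distance from the first base of the motif, read along the gene, to the start was 96 bases in Clec7a, 61 and 47 bases in Clec12a, 123 and 56 bases in Clec4e and 240 bases in Clec4d. Clec4b2 held the motif 178 bases before its start without being expressed, and Clec2d, an expressed member, did not hold it in this window. The motif of STAT factors, TTCNNNGAA, was in the window of Clec4a2 and of Klra2, which was not above the cut, against 8.13% of all genes. These are matches of letters, and binding was not measured.

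A gene was called expressed where its mean over the 8 arrays lay above 6.52 on the log2 scale, the 95th percentile of the means of 1027 olfactory receptor genes, which are mostly silent outside the nose. By this rule 15 of the 63 members (23.8%) were expressed, against 48.2% of all genes. They were Clec7a, Clec12a, Clec9a and Clec1a of the Dectin-1 cluster, Clec4a1, Clec4a2, Clec4a3, Clec4d, Clec4e and Clec4n of the Dectin-2 cluster, Clec2d, Clec5a, Clec16a, Clec18a and, among the 23 Klr genes, Klra3. The member nearest above the cut was Clec18a at 6.67 and the nearest below was Clec2h at 6.37. Probe sets differ in their response to the same amount of RNA, so no order is read from levels of different genes. At the 99th percentile of the olfactory receptors, 7.37, 10 of these 15 remained, and Clec1a, Clec9a, Clec5a, Clec18a and Klra3 did not.

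**Figure D1:**
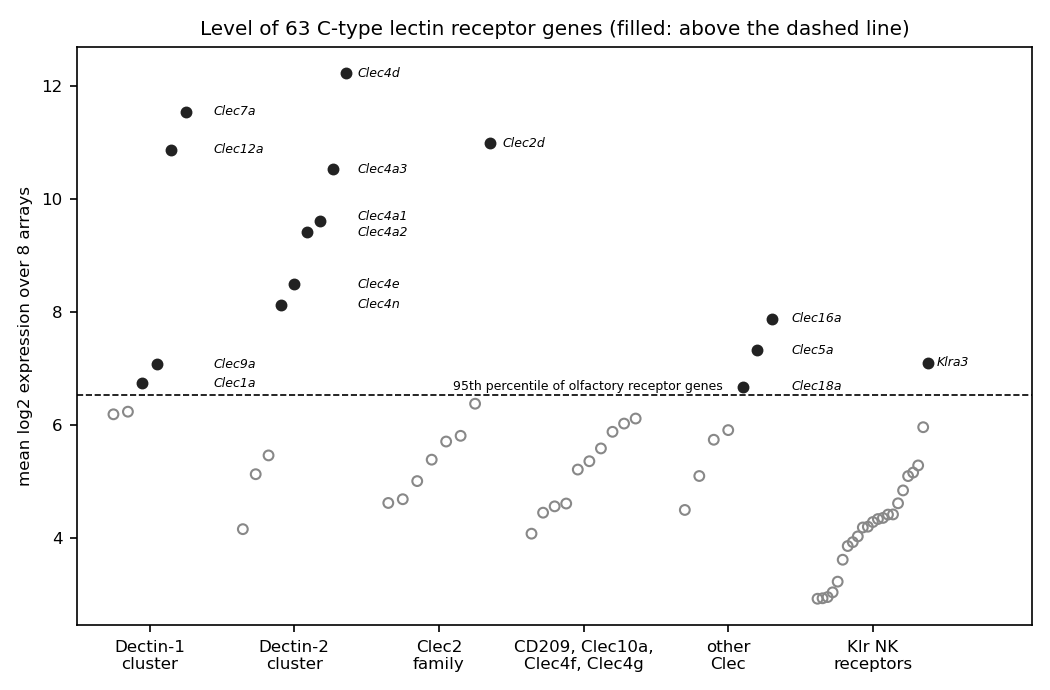
Mean log2 expression over 8 arrays (vertical axis) of each of the 63 member genes, by gene group (horizontal axis). Filled points lie above the dashed line at 6.52, the 95th percentile of olfactory receptor genes, and open points below it. The Dectin-1 and Dectin-2 clusters hold 10 of the 15 filled points, the Klr group 1 of its 23 and the group of Cd209 genes, Clec10a, Clec4f and Clec4g none of its 10.

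Of the 63 genes, 48 lie on mouse chromosome 6 in the RefSeq gene order, 10 on chromosome 8 and 1 each on 5 other chromosomes. Along chromosome 6 the 9 members from Clec4a1 to Clec4e held 6 expressed genes, and the 6 members from Clec12a to Clec7a held 4. Between these, the 13 members from Klrb1a to Clec2m, which mix NK receptors with their ligands, held 1, Clec2d. The 15 members from Klre1 to Klra2 held 1, Klra3. Clec4a4, Clec4b1 and Clec4b2 lay below the cut between expressed neighbours.

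**Figure D2:**
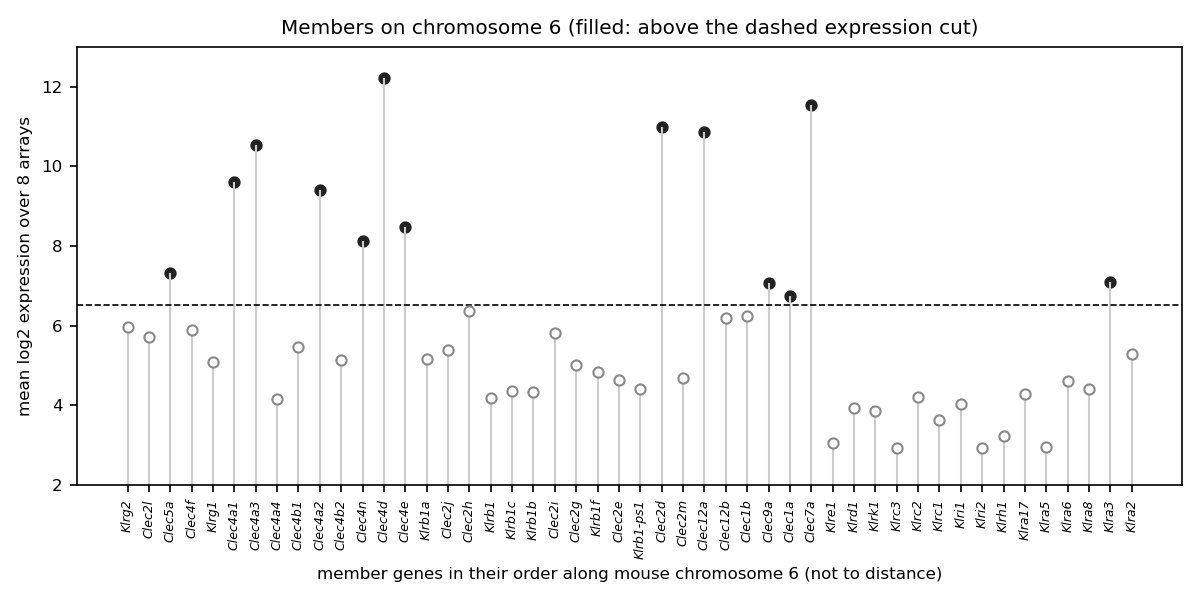
Mean log2 expression over 8 arrays (vertical axis) of the 48 members on chromosome 6 in their gene order (horizontal axis, not to distance). Filled points are above the dashed expression cut of 6.52. The runs from Clec4a1 to Clec4e and from Clec12a to Clec7a hold 6 and 4 of the 13 filled points, and the run from Klre1 to Klra2 holds 1.

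None of the 63 genes was called between genotypes. At a Benjamini-Hochberg adjusted p under 0.05 over all genes in limma, 0 members passed, where 6 of the 19938 genes did (0.0301%). The lowest adjusted p of a member was 0.616. At an unadjusted p under 0.05, 7 members differed (11.1%), against 7.28% of all genes, and 1 of the 7, Clec1a, was expressed. Of these 7, 4 were lower in IL6raKO, where the share of all genes was 4.54%, and 3 were higher, where it was 2.74%. The split was 1 lower and 5 higher after quantile normalization and 6 lower and 2 higher after centring on the 75th percentile. The share of all genes in either direction was 6.67% and 8.85% under these settings. Over all members the median difference of IL6raKO minus Ctrl was 0.00 (range -0.24 to 0.37), beside -0.01 for all genes. The 95% confidence interval of a member reached a median of 0.20 on the log2 scale to either side of its difference. This interval is not adjusted for the number of genes, and a difference beyond it need not pass the adjusted threshold. Il6ra itself, with a difference of -0.50 (SE 0.07), had a limma adjusted p of 0.0607. The absence of calls therefore does not exclude changes above 0.20.

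**Figure D3:**
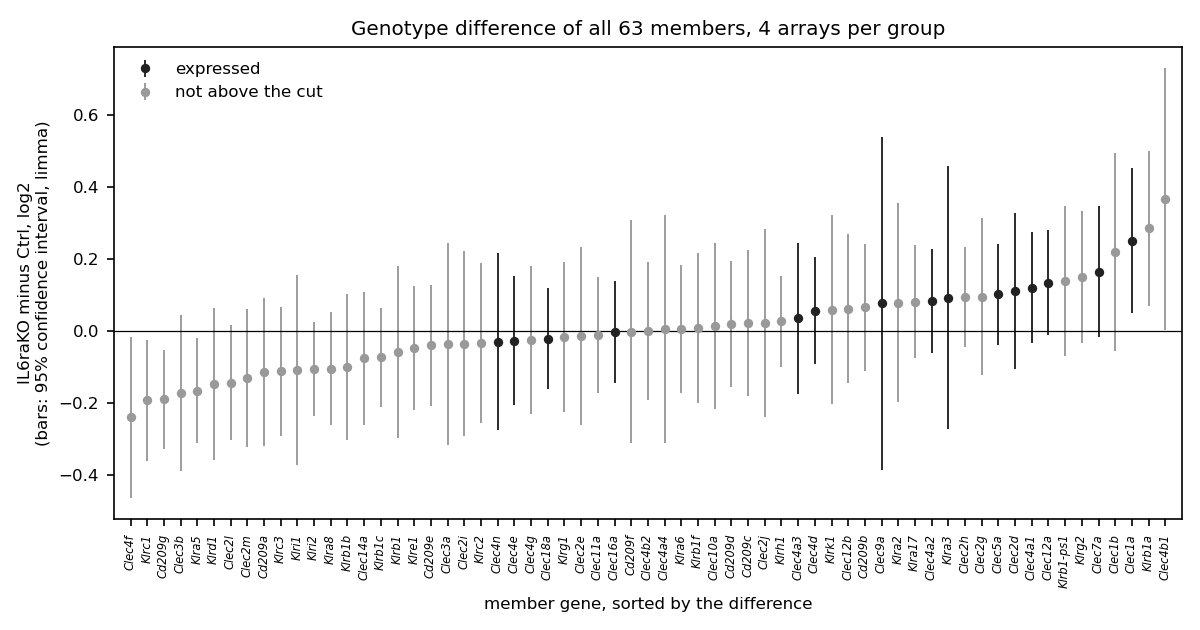
IL6raKO minus Ctrl difference in log2 expression (vertical axis, bars are 95% confidence intervals from limma, 4 arrays per group) of all 63 members sorted by the difference (horizontal axis). Black points are the 15 expressed members and grey points the other 48. Differences run from -0.24 for Clec4f to 0.37 for Clec4b1, and no member passed the adjusted threshold.

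Clec7a, which encodes Dectin-1, the receptor for fungal beta-glucan, was at 11.61, 11.49, 11.53 and 11.21 in Ctrl replicates 1 to 4 and at 11.64, 11.58, 11.65 and 11.63 in IL6raKO replicates 1 to 4. The IL6raKO arrays lay close together and Ctrl replicate 4 lay below all others. The group means were 11.46 ± 0.17 and 11.62 ± 0.03 (SD, n = 4 each), which differed by 0.16 (SE 0.08, 95% confidence interval -0.02 to 0.35, limma adjusted p = 0.708). Without Ctrl replicate 4 the difference of Clec7a was 0.08. The promoter printed for it above thus belongs to a gene that was expressed in both genotypes and did not pass the test.

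Clec12a encodes MICL, an inhibitory receptor that senses uric acid crystals. Its values were 10.92, 10.86, 10.71 and 10.72 in Ctrl and 10.98, 10.91, 10.89 and 10.96 in IL6raKO. Ctrl replicates 3 and 4 were the low arrays, and Ctrl replicate 1 lay within the IL6raKO range. The difference was 0.13 (SE 0.07, 95% confidence interval -0.01 to 0.28, limma adjusted p = 0.707).

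Clec1a encodes a receptor for fungal melanin and is best known from endothelial cells. Its probe set was near the cut, at 6.61, 6.45, 6.79 and 6.58 in Ctrl and 6.88, 6.70, 6.80 and 7.05 in IL6raKO. Ctrl replicate 3 lay among the IL6raKO values, so the groups overlapped. The difference of 0.25 (SE 0.09, limma adjusted p = 0.647) had the lowest p of any expressed member.

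Clec9a encodes DNGR-1, a receptor for actin of dead cells that is best known from cross-presenting dendritic cells. It was at 7.20, 7.24, 7.42 and 6.28 in Ctrl and at 7.15, 6.82, 7.40 and 7.09 in IL6raKO. Ctrl replicate 4 was far below every other array for this gene, and the SD in Ctrl, 0.51, was the largest of any member. The difference was 0.08 (95% confidence interval -0.39 to 0.54) and turned to -0.17 without Ctrl replicate 4. Of 11 dendritic cell markers, 5 were above the expression cut: Itgax, Tcf4, Bst2, Ccr7 and Batf3. The mean log2 level of these 5 ranged from 8.53 to 8.67 in Ctrl and from 8.48 to 8.60 in IL6raKO, with Ctrl replicate 4 at 8.63. Xcr1, Flt3 and Zbtb46 were among the markers below the cut, with means over all arrays of 5.15, 5.81 and 5.67. The part of dendritic cells in the Clec9a values was not tested.

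The remaining members of the Dectin-1 cluster were below the cut: Clec1b, the platelet receptor for podoplanin, differed by 0.22 and Clec12b, an inhibitory receptor, by 0.06. All 6 measured members of this cluster thus had differences above 0, against 45.8% of all genes and 57.9% of expressed genes. Their median was 0.15, and 0 of the 6 passed the adjusted threshold. After quantile normalization and after centring on the 75th percentile 6 of 6 were still above 0, and without Ctrl replicate 4 it was 5 of 6 with a median of 0.10. The count was also 5 of 6 with array weights, without IL6raKO replicate 3 and without IL6raKO replicate 4.

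The Dectin-2 cluster held receptors of mycobacterial and fungal glycolipids and mannans, which were expressed in every array and had small differences. Clec4d encodes MCL, which binds mycobacterial trehalose dimycolate and pairs with Mincle. It was at 12.26, 12.30, 12.16 and 12.05 in Ctrl and at 12.26, 12.24, 12.24 and 12.27 in IL6raKO, with means that differed by 0.06 (limma adjusted p = 0.879, 95% confidence interval -0.09 to 0.20), or by 0.01 without Ctrl replicate 4. The IL6raKO arrays spanned less than the Ctrl arrays and lay inside their range. Clec4e encodes Mincle itself, and stood at 8.32, 8.60, 8.52 and 8.56 in Ctrl and 8.33, 8.50, 8.61 and 8.45 in IL6raKO. Its groups overlapped throughout, and the means differed by -0.03 (limma adjusted p = 0.96, 95% confidence interval -0.21 to 0.15).

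Clec4n encodes Dectin-2, the receptor for fungal mannans. It was at 8.40, 8.16, 8.17 and 7.85 in Ctrl and at 8.08, 7.92, 8.27 and 8.18 in IL6raKO. Both the highest and the lowest array were Ctrl arrays, and the difference was -0.03 (95% confidence interval -0.28 to 0.22), or -0.13 without Ctrl replicate 4.

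Clec4a2 encodes DCIR, which carries an inhibitory motif. It was at 9.46, 9.42, 9.36 and 9.25 in Ctrl and at 9.54, 9.42, 9.42 and 9.42 in IL6raKO, a difference of 0.08 (SE 0.07, limma adjusted p = 0.8). Clec4a3 of the same family stood at 10.73, 10.53, 10.53 and 10.25 in Ctrl and 10.54, 10.49, 10.68 and 10.46 in IL6raKO, a difference of 0.03 (SE 0.10). Clec4a1 was at 9.70, 9.57, 9.45 and 9.44 in Ctrl and 9.69, 9.67, 9.68 and 9.61 in IL6raKO, a difference of 0.12 (SE 0.07). Without Ctrl replicate 4 the differences were 0.04 for Clec4a2, -0.05 for Clec4a3 and 0.09 for Clec4a1. In each of these 3 genes Ctrl replicate 4 was the lowest of the 8 arrays and the groups overlapped. Their relative Clec4a4, the DCIR2 gene, was at 4.15 in Ctrl and 4.16 in IL6raKO, below the cut. The Clec4a genes are close copies of each other, and cross-hybridisation between their probe sets was not analysed here.

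Clec4b1, which encodes the activating receptor DCAR, was below the cut and had the largest difference of any member. It was at 5.48, 4.86, 5.28 and 5.48 in Ctrl and 5.28, 5.52, 6.02 and 5.75 in IL6raKO, a difference of 0.37 (SE 0.17, limma adjusted p = 0.681). IL6raKO replicate 1 lay within the Ctrl range, and without Ctrl replicate 2 the difference was 0.23. In the cluster, 6 of 9 members had differences above 0, against 45.8% of all genes and 57.9% of expressed genes, with a median of 0.03. Without Ctrl replicate 4 it was 4 of 9 with a median of -0.01.

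Clec5a encodes MDL-1, which signals through the adaptor DAP12, the product of Tyrobp. It was at 7.39, 7.29, 7.21 and 7.19 in Ctrl and 7.35, 7.34, 7.39 and 7.41 in IL6raKO, a difference of 0.10 (SE 0.06, limma adjusted p = 0.751). Ctrl replicate 1 lay within the IL6raKO range and the other Ctrl arrays below it. Clec16a, which despite its name encodes an endosomal protein of the autophagy pathway, was at 7.88 in Ctrl and 7.87 in IL6raKO (difference 0.00, SE 0.06), and Clec18a at 6.68 and 6.66.

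Clec2d, which encodes Clr-b, the ligand of an inhibitory NKR-P1 receptor, was the 1 expressed gene of 8 in its family. It was at 11.19, 10.99, 10.89 and 10.66 in Ctrl and at 11.13, 10.99, 11.03 and 11.00 in IL6raKO. The Ctrl arrays spread on both sides of the IL6raKO arrays, and the difference was 0.11 (95% confidence interval -0.11 to 0.33), or 0.02 without Ctrl replicate 4. The other 7 members of the family had means between 4.62 and 6.37.

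The group of Cd209 genes, Clec10a, Clec4f and Clec4g, most of them known as mannose- or galactose-binding receptors, had 0 of 10 genes above the cut. Clec10a, the galactose-binding lectin MGL1 of macrophages and dendritic cells, was at 4.65, 4.24, 4.33 and 4.54 in Ctrl and 4.25, 4.56, 4.40 and 4.61 in IL6raKO, with means that differed by 0.01 (95% confidence interval -0.22 to 0.24). Cd209a, the mouse gene named after human DC-SIGN, was at 5.65, 5.63, 5.81 and 5.47 in Ctrl and 5.61, 5.68, 5.32 and 5.49 in IL6raKO, with means that differed by -0.11 (95% confidence interval -0.32 to 0.09). Both genes overlapped between the groups and lay within the range of olfactory receptor genes.

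Cd209g was the 1 member whose groups did not overlap, 1.59% of the 63, against 2.37% of all genes in that direction, and 0 members lay entirely higher, against 2.07%. These counts changed with single arrays left out: without Ctrl replicate 1, 8 members lay entirely higher and 1 lower. With any other single array left out 0 to 3 lay higher and 1 to 4 lower. Groups of fewer arrays separate more easily, and the share of all genes was not counted with an array left out. The counts with an array left out thus have no background. Cd209g was at 6.14, 6.02, 6.11 and 6.20 in Ctrl and 5.89, 5.92, 5.89 and 6.01 in IL6raKO, a difference of -0.19 (SE 0.06, limma adjusted p = 0.616), and its mean was below the cut. The nearest arrays of the groups were Ctrl replicate 2 and IL6raKO replicate 4. Clec4f, a lectin of liver Kupffer cells, was also below the cut and differed by -0.24 (SE 0.10, limma adjusted p = 0.669).

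The NK cell receptors had low values. Klrk1, the NKG2D gene, was at 4.03, 3.66, 3.82 and 3.80 in Ctrl and 3.95, 4.15, 3.54 and 3.89 in IL6raKO. Klrd1, the CD94 gene, was at 3.82, 4.11, 3.85 and 4.22 in Ctrl and 3.92, 3.96, 3.80 and 3.73 in IL6raKO, and Klrb1c, the gene of the NK1.1 antigen, at 4.38, 4.37, 4.45 and 4.36 in Ctrl and 4.44, 4.27, 4.30 and 4.26 in IL6raKO. The groups overlapped in all 3 genes, with differences of 0.06, -0.15 and -0.07 and limma adjusted p from 0.759 to 0.941. Over the 23 Klr genes the differences ran from -0.19 to 0.29 with a median of -0.03. Of 12 other NK cell markers, 2 were above the cut, Prf1 (difference -0.03) and Cd244a (difference -0.37, without overlap, limma adjusted p = 0.477). None of the 12 differences was above 0, against 45.8% of all genes and 57.9% of expressed genes. Most of the 12 lay below the cut, so neither share is a background of the same level. Differences above 0 numbered 0 of 8 for B cell markers and 1 of 12 for those of mast cells and basophils. They were 3 of 9 for T cells, 4 of 12 for neutrophils and 5 of 11 for dendritic cells. The part of NK cells in the Klr values was not tested.

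Klra3, a Ly49 gene, was the exception above the cut, at 7.12, 7.16, 7.05 and 6.90 in Ctrl and 7.44, 6.53, 7.35 and 7.28 in IL6raKO. IL6raKO replicate 2 was the lowest of the 8 arrays while the other IL6raKO arrays were the highest, and the SD in IL6raKO was 0.42. The difference was 0.09 (95% confidence interval -0.27 to 0.46), and without IL6raKO replicate 2 it was 0.30. Ly49 genes are near-identical: 4 further probe sets were each assigned to several of them and were left out of the 63. Their means were 3.61, 4.91, 5.24 and 5.02, below the cut, and the last 3 of these list Klra3 among their genes. Whether the Klra3 value comes from Klra3 RNA is uncertain.

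Klrb1a, which encodes an NKR-P1 receptor, was at 5.27, 5.07, 4.87 and 4.84 in Ctrl and 5.45, 5.31, 5.22 and 5.22 in IL6raKO, a difference of 0.29 (SE 0.10, limma adjusted p = 0.616). It, Klra5 (difference -0.17) and Klrc1 (difference -0.19), the gene of the NKG2A inhibitory receptor, were the Klr genes with an unadjusted p under 0.05, and all 3 were below the cut.

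Among the 15 expressed members, 11 had differences above 0 (73.3%), against 57.9% of all 9613 expressed genes. The median difference was 0.08, beside 0.02 for all expressed genes. At an unadjusted p under 0.05, 1 of the 15 differed (6.67%), in the direction of higher, where 6.32% of all expressed genes differed and 3.83% were higher. None of the 15 was without overlap, against 3.43% of expressed genes that lay entirely higher in IL6raKO and 1.90% entirely lower. This median depended on single arrays. Ctrl replicate 4 was the lowest of the 8 arrays for 9 of the 15 members (60%), against 23.7% of all expressed genes, and lay a median of 0.19 below the mean of the other 7 arrays. Without it the median difference of the expressed members was 0.02 and 9 of 15 were above 0, while that of all expressed genes was 0.01. It was 0.05 without IL6raKO replicate 1, and 0.06 with 9 of 15 above 0 without IL6raKO replicate 3. Without Ctrl replicate 1, Ctrl replicate 2 or IL6raKO replicate 2 it was 0.11 with 13 of 15 above 0. The low array was noticed in these data and then counted.

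**Figure D4:**
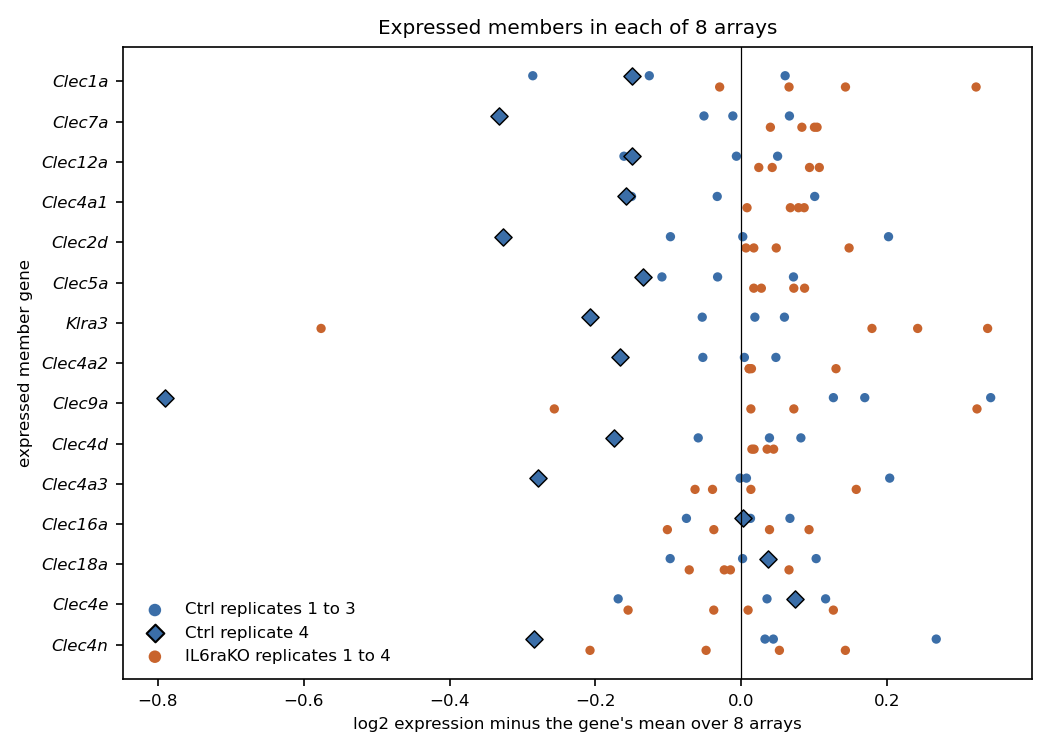
Log2 expression of the 15 expressed members (vertical axis, sorted by the genotype difference) in each of 8 arrays, as the distance from the gene's mean over the arrays (horizontal axis). Blue points are Ctrl arrays, orange points IL6raKO arrays, and the outlined diamond is Ctrl replicate 4. The diamond is the leftmost point for 9 of the 15 genes, among them Clec7a, Clec2d and Clec9a.

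The same array was also the lowest for 6 of the 8 expressed macrophage markers, including Cd68 and Lyz2, against 23.7% of all expressed genes. Csf1r, another of the 6, was at 12.30 in both Ctrl replicate 4 and Ctrl replicate 1. Fcgr1 went the other way and was highest in Ctrl replicate 4, at 9.39. The mean level over the 8 genes was 11.65 in Ctrl replicate 4, 11.74 to 11.79 in the other Ctrl arrays and 11.68 to 11.73 in IL6raKO. Of 12 markers of mast cells and basophils, 3 were above the cut, and their mean level was highest in Ctrl replicate 4. It was 7.34, 7.72, 7.93 and 8.47 in Ctrl replicates 1 to 4 and 6.86, 7.59, 7.69 and 7.96 in IL6raKO replicates 1 to 4. The level thus rose with replicate number in both groups, and was not high in Ctrl replicate 4 alone. For Cpa3, a carboxypeptidase of those cells, Ctrl replicate 4 had 9.17, where the remaining arrays spanned 7.39 to 8.55. In a bulk culture, fewer cells of a type and less RNA per cell cannot be told apart, and the part of these cells in the receptor values was not tested.

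Other genes with a C-type lectin fold were listed by name rather than by symbol. Of 26 measured, 10 were expressed and 0 passed over all genes. Differences above 0 were found in 11 (42.3%, against 45.8% of all genes), and the median was -0.01. Among the 10 expressed genes of the list, 4 had differences above 0, the median was -0.01, and Ctrl replicate 4 was the lowest array for 3 (30%). Olr1, which lies beside Clec7a in the Dectin-1 cluster and encodes LOX-1, the receptor for oxidised LDL, had the lowest p of the list. It was at 7.68, 7.38, 7.29 and 6.91 in Ctrl and 7.89, 7.80, 8.13 and 7.70 in IL6raKO. Every IL6raKO array lay above every Ctrl array, as in 2.07% of all genes and 3.43% of expressed genes, with a difference of 0.56 (SE 0.14, 95% confidence interval 0.25 to 0.88) and a limma adjusted p of 0.535. Without Ctrl replicate 4, again the lowest array, it was 0.43. The next 3 by p were Fcer2a (difference -0.33), Asgr2 (-0.19) and Colec10 (0.16), all below the cut.

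Adaptors and kinases that carry the signal of these receptors were expressed: 19 of 20 measured genes were above the cut, and Card9 was just below it at 6.47. The list held 12 differences above 0 (60%, against 57.9% of all expressed genes) and 8 below, with a median of 0.01. Over all genes, 0 of 20 passed. The activators Fcer1g and Tyrobp differed by 0.02 and -0.03, and Syk by 0.06 (95% confidence interval -0.07 to 0.20). The lowest p-values were those of Vav1, a guanine nucleotide exchange factor, at -0.15 (SE 0.06), Malt1, the paracaspase of the CARD9 complex, at 0.17 (SE 0.07), Blnk, an adaptor best known from B cells, at 0.15 (SE 0.06), and Ptpn6, the phosphatase SHP-1, at -0.14 (SE 0.07). These 4 were named for their low p. The groups did not overlap in Vav1, which lay entirely lower in IL6raKO, as did 1.90% of all expressed genes, nor in Malt1 and Blnk, which lay entirely higher, as did 3.43%. The limma adjusted p of these 4 genes was 0.669 to 0.708.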

How the data were processed

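Per the labels' protocols, biotin-labelled RNA from 8 cultures was read on Affymetrix arrays that probe whole transcripts. For each of 35556 probe sets the authors deposited a log2 value on every array. The submitters' processing notes name RMA and R 2.13.1. Which steps came in which order, and the build behind the probe sets, is not given in the sources used here. That the scale is log2 follows from the range of the values, 1.96 to 14.2. RMA compresses differences of dim probe sets.

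Probe sets with exactly 1 gene symbol in GEO's platform annotation (21789) were kept, and 1621 with several symbols were not used for named genes. The probe set of highest mean over the 8 arrays was taken per gene. Clec4g was the 1 member with 2 probe sets (differences -0.03 and 0.06). The Entrez identifiers of all 63 members were found in the RefSeq table of GRCm38.p6, and 52 had a promoter there, 7 of them with 2 windows.

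IL6raKO minus Ctrl was fitted with limma 3.58.1 in R 4.3.3 (lmFit, eBayes, no covariate, no filter), with Benjamini-Hochberg adjustment over all 19938 genes, two-sided. The fit was tested on simulated data. Members and lists were chosen with earlier results of these data known. Members given in every array were 14 named in the design and the 10 expressed ones of lowest p (18 in all); another 8 were named after their values were seen, and each pathway list gave 4. The labels do not state that replicate numbers pair the arrays, and the main fit did not pair them. Over all genes, deviations from the group means correlated at -0.01, -0.01, 0.04 and -0.01 between arrays of the same number. These correlations cannot show that pairing is absent. The mean of the expressed mast cell and basophil markers rose from replicate 1 to replicate 4 in both groups. Alternatives were another variance model, array weights, a replicate block, a level filter, 2 scalings, the mean of probe sets, other expression cuts and each array left out. Array medians were 6.31 to 6.35.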

Additional observations from a re-analysis of the deposited data

Results flagged for a closer look

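Clec4a2 was at 9.54 in IL6raKO replicate 1, while the other 3 IL6raKO arrays lay at 9.42, a gap that is large beside the range of the group. It was 1 of 68 sets of 4 values examined in this way, where chance gives about 3.4.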

How the results depend on the processing

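With 4 arrays per group, the 95% confidence interval of a member reached a median of 0.20 on the log2 scale to either side. The count of members called over all genes was 0 under every setting run (0 to 0 with any 1 array left out). With 1 array left out, 0 or 1 of all genes were called, so those settings could hardly have called a member. The number of expressed members was 15, or 10 to 15 with other expression cuts. The count at an unadjusted p under 0.05 was 7, against 7.28% of all genes. It was 2 (Clec12a and Clec1a) of 15 members above the median level of all genes, against 8.26% of the genes above that level. With 1 array left out it was 4 (without IL6raKO replicate 2, against 6.46% of all genes) to 10 (without Ctrl replicate 1, against 8.98%). Scaling changed the split of 4 lower and 3 higher to 1 and 5 after quantile normalization and 6 and 2 after centring on the 75th percentile. The share of all genes in either direction was then 6.67% and 8.85%. The median difference of all members was 0.0831 for those above the median level, 0.0363 after quantile normalization and -0.0281 after centring, and -0.02 to 0.02 with 1 array left out. Members without overlap numbered 0, 2 and 3 under the same 3 settings, and 1 to 9 with 1 array left out, with 8 higher and 1 lower without Ctrl replicate 1. The share of all genes without overlap was not counted under these settings, so these counts have no background. The median of the expressed members was 0.02 (without Ctrl replicate 4) to 0.11. With the replicate block, 8 members had an unadjusted p under 0.05, against 7.3% of all genes, and 0 were called. It changed no call of a member, but the number of all genes called fell from 6 to 0. The count of expressed members lowest in Ctrl replicate 4 was 8 under either scaling, an alternative chosen after seeing the data. Of the 26 members chosen for naming by the rules given under processing, 17 kept the sign of their difference under every setting run on them. Some of the 26 were chosen for a low p in these data, and the variance model, the replicate block and the level filter cannot change a difference. The share of all genes that kept their sign was not counted, so this count does not measure robustness.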
